A study of Mus musculus with 8 samples.

Results

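The 10 metabolic nuclear receptors of the mouse liver followed here were Ppara, Ppard, Pparg, Rxra, Nr1h3, Nr1h4, Nr1i2, Nr1i3, Nr0b2 and Nr5a2. The 10 genes were taken by symbol, through the RefSeq transcript that each array probe is annotated with, and 14 probes of the 56605 on the array belonged to them. All 10 were among the 26551 genes and unnamed transcripts that could be tested, of which 15522 had a symbol. There were 2 probes for each of 4 genes (Ppara, Rxra, Nr1h3 and Nr1i3) and 1 for each of the other 6. Every one of the 14 probes read well above background on all 8 arrays, so no member entered through the group where it was high. For a gene with several probes, the probe with the highest mean stood for the gene.

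RNA of whole liver from mice 10 to 11 weeks old was hybridised to 1-colour arrays. The 4 groups were males labelled knockout, males labelled wild type, females labelled knockout and females labelled wild type, with 2 arrays each. The knockout label stands for liver-specific deficiency of Bcl-6 (gene Bcl6), a zinc-finger transcriptional repressor. The sources used here do not give the promoter or Cre line behind the liver-specific loss, the strain, or whether each array came from its own animal. The p-values therefore measure only how far these samples spread, which may be technical. The series asks how Bcl6 bears on the differences between male and female liver.

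Nuclear receptors are transcription factors that bind small lipophilic ligands and act on nearby genes. Ppara, Ppard and Pparg sense fatty acids, Nr1h3 (LXR alpha) oxysterols, Nr1h4 (FXR) bile acids, and Nr1i2 (PXR) and Nr1i3 (CAR) drugs and other foreign compounds. These bind DNA as pairs with Rxra, the retinoid X receptor alpha. Nr5a2 (LRH-1) binds alone, and Nr0b2 (SHP), which lacks a DNA-binding domain, represses other receptors and is itself a classic target of FXR in the liver.

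The arrays lay on 1 slide with 1 scan time. Its row 1 held the females and its row 2 the males, and in any comparison between the sexes the row cannot be told apart from sex, while both genotypes were present in each row. Between 33677 and 36459 of the 59305 non-control spots on each array read well above background, and 0 were saturated. The number of arrays limits the precision. Xist lay at -6.57 to -6.19 on the 4 male arrays and at 0.10 to 0.56 on the 4 female arrays, and Ddx3y, Kdm5d, Uty and Eif2s3y were high on the arrays labelled male, as labelled. Bcl6 did not separate the genotypes in females or over both sexes. In males, where 62.0% of all features did not overlap, its arrays labelled knockout lay above those of wild type. Its level was 4.49 and 4.01 in males labelled knockout, 3.97 and 2.91 in wild-type males, 1.62 and 4.41 in females labelled knockout and 2.95 and 0.86 in wild-type females. The mean difference, labelled knockout minus wild type, was 0.96 ± 0.75 (log2, SE, limma, adjusted p = 0.398). Where the Bcl6 probe lies relative to the deleted part is not given, so it checks nothing about the labels, and the groups are called by their labels below.

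All levels are log2 values of the processed signal minus the log2 of that array's 75th percentile, so 0 is the 75th percentile of the array. They are compared between groups for 1 probe at a time and not between probes. The differences come from limma fitted to all 26551 features with 4 group means, adjusted by Benjamini-Hochberg over all of them, with a threshold of 0.05 on the adjusted p.

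The upstream sequences of 3 members are shown first, because Nr1h4, Nr1i2 and Rxra are those whose lower level in livers labelled knockout was called, with both sexes averaged, under every alternative setting that gave the value. The RefSeq promoter table (build GRCm38.p6) matched all 10 members, with 15 start sites. The 250 bases before each start are printed 5′ to 3′ on the gene's strand, and capitals mark matches to the nuclear receptor half-site AGGTCA on either strand.
Nr1h4, chr10:89506659-89506908, minus strand: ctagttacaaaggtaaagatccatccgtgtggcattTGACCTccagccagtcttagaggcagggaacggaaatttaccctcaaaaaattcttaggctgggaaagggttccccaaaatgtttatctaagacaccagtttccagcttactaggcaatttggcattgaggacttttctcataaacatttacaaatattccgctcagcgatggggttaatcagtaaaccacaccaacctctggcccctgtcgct
Nr1i2, chr16:38294825-38295074, minus strand: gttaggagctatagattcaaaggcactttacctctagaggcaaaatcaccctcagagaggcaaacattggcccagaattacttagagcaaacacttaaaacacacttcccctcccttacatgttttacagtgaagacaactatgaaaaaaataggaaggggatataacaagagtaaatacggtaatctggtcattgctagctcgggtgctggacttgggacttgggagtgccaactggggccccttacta
Rxra, first listed start, chr2:27676951-27677200, plus strand: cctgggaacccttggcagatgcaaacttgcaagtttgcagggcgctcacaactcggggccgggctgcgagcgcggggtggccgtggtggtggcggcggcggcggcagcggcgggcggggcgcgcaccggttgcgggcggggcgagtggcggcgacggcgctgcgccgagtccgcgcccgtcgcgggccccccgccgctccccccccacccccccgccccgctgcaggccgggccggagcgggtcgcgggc
Rxra, second listed start, chr2:27709042-27709291, plus strand: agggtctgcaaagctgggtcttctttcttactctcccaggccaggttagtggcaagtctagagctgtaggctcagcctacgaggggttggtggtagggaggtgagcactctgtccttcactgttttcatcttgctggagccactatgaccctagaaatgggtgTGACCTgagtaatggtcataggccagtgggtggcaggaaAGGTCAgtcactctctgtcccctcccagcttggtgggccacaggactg
The Nr1h4 window held 1 half-site, on the opposite strand, 214 to 209 bases before the start. The second Rxra window held 2, at 87 to 82 bases before the start on the opposite strand and at 48 to 43 on the gene's strand, and the first Rxra window and the Nr1i2 window held 0. The first Rxra window was 81.2% G and C, against 44.4% for Nr1h4, 44.0% for Nr1i2 and a median of 52.4% over all promoters. Over the 15 member starts, 5 held the half-site, the others being 2 of Pparg and 1 of Nr5a2, and 4607 of all 32851 listed promoters did. A direct repeat of the half-site with 1 base between was found in 0 member windows and in 0.0335% of all promoters. The STAT5 core TTCNNNGAA was found in 1, that of Nr0b2 (91 to 83 bases before the start), and in 7.02% of all promoters. The BCL6-like core TTCNTAGAA, which is a subset of the STAT5 core, was found in 0 member windows and in 0.947% of all promoters. Both strands were searched for each motif. A match describes letters in this window and no binding.

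Averaged over both sexes, Rxra, Nr1h4, Nr1i2 and Pparg were lower in livers labelled knockout, by 1.40- to 1.88-fold, and Ppard was higher, by 2.95-fold. The other 5 members did not pass the test. Of all features tested, 19.8% passed in this comparison, 9.82% higher and 10.0% lower. The median difference of the 10 members was -0.47, and that of all features was -0.02 (log2).

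Within one sex fewer members passed. In males 2 were lower (Nr1h4 and Nr1i2) and 0 higher, where 10.7% of all features passed (5.77% higher, 4.93% lower). In females 4 were lower (Pparg, Rxra, Nr1h4 and Nr1i3) and 0 higher, where 5.93% of all features passed (3.48% higher, 2.45% lower). The members' median difference was -0.21 in males and -0.64 in females, against -0.04 and 0.00 over all features. The arrays of both genotypes did not overlap for 7 of 10 members in males and 9 of 10 in females. With 2 arrays a side, 62.0% of all features did not overlap in males and 55.5% in females.

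**Figure D1:**
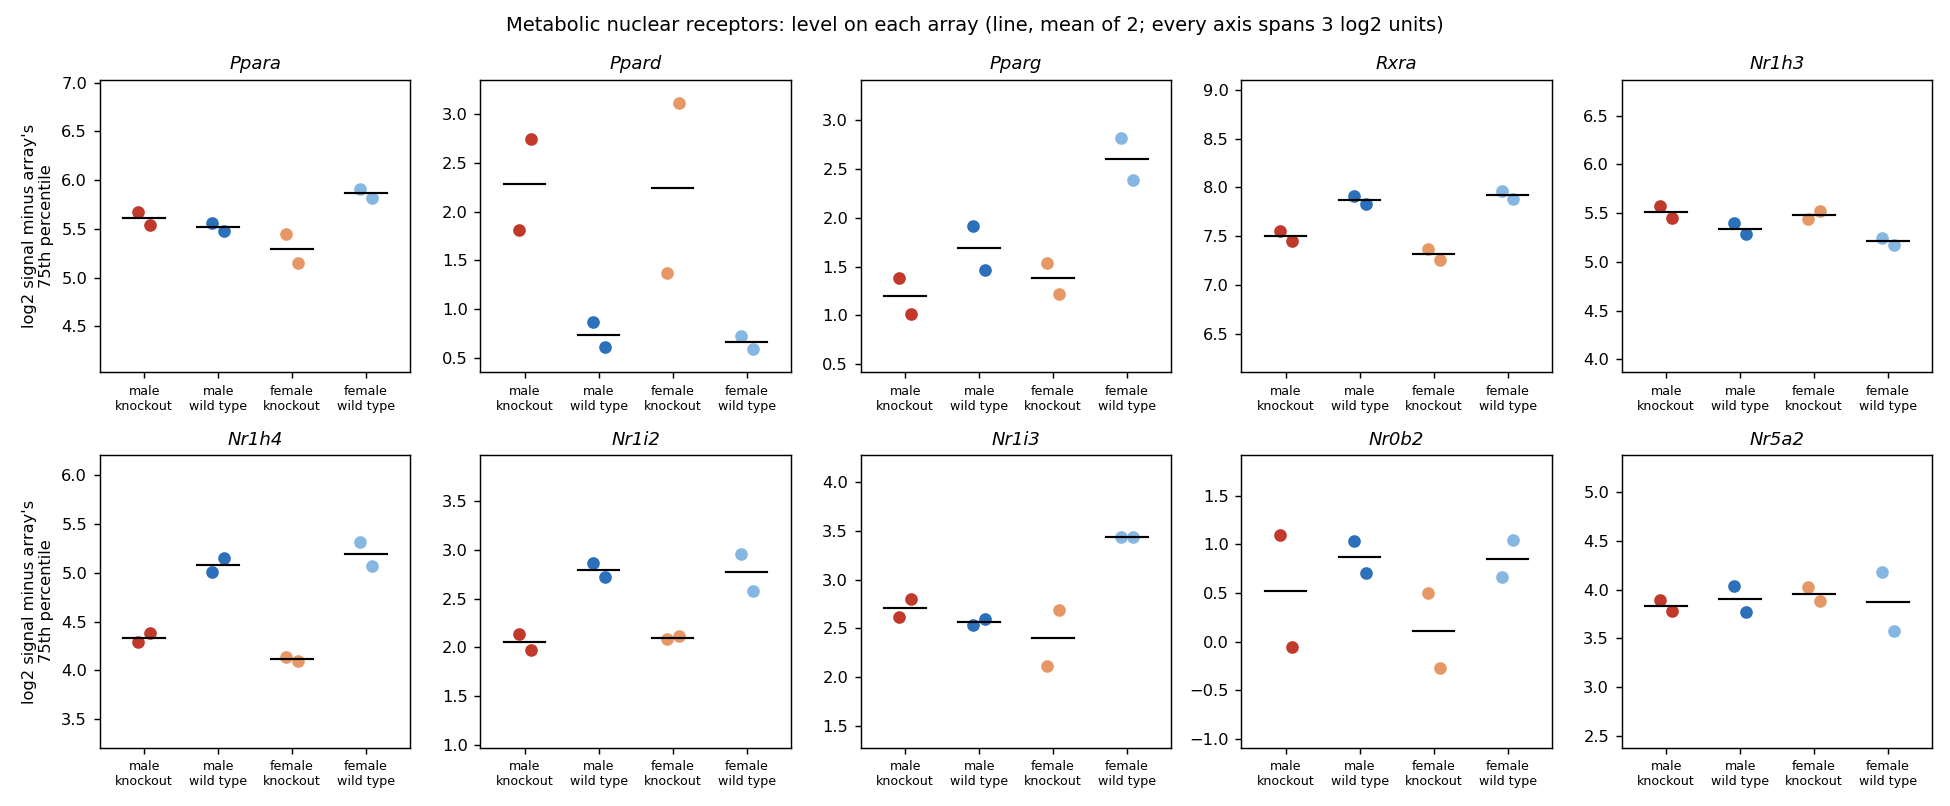
Level of each of the 10 receptors on each array (vertical axis, log2 signal minus the array's 75th percentile; every panel spans 3 log2 units) for the 4 groups; points are arrays and lines the mean of 2. Nr1h4, Nr1i2 and Rxra lie lower in both groups labelled knockout than in both wild-type groups, while Nr1i3 stands out in wild-type females at 3.43 on both arrays.

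Rxra is the partner that most of the other members need to bind DNA. Its brighter probe read 7.55 and 7.45 in males labelled knockout, against 7.92 and 7.83 in wild-type males. In females labelled knockout it read 7.37 and 7.25, against 7.96 and 7.88 in wild-type females. All 4 arrays labelled knockout lay below all 4 wild-type arrays, where 25% of all features were separate in either direction. The difference averaged over both sexes was -0.49 ± 0.07 (SE, limma, adjusted p = 0.00847), which is 1.40-fold lower. In females alone it was -0.61 ± 0.10 (adjusted p = 0.0288) and in males -0.37 ± 0.10 (adjusted p = 0.0769, not past the threshold). The female call was lost when any 1 of the 8 arrays was left out (highest adjusted p = 0.115), and the averaged one in none of these refits (highest 0.0417).

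A second, much dimmer Rxra probe moved the same way by less. It read 0.08 and 0.03 in males labelled knockout, against 0.22 and 0.37 in wild-type males, and 0.20 and -0.07 in females labelled knockout, against 0.46 and 0.28 in wild-type females. Its averaged difference of -0.28 ± 0.10 did not pass the test (limma, adjusted p = 0.0942 over probes).

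Nr1h4, the bile acid receptor, had the smallest adjusted p of the 10 members. It read 4.29 and 4.38 in males labelled knockout, against 5.01 and 5.15 in wild-type males. The female levels were 4.14 and 4.09 in livers labelled knockout, against 5.32 and 5.07 in wild type. No array labelled knockout reached any wild-type array. The level was 1.67-fold lower in males (-0.74 ± 0.12, adjusted p = 0.0182) and, by the same limma fit, 2.11-fold lower in females (-1.07 ± 0.12, adjusted p = 0.00909). The average over both sexes was -0.91 ± 0.09 (adjusted p = 0.00202). The averaged call held in every alternative setting that gave it, with adjusted p of at most 0.0132. The male call was lost without either male array labelled knockout and without wild-type male 2, and the female call without female labelled knockout 1.

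Nr1i2, the xenobiotic receptor PXR that drives detoxifying cytochromes P450, read 2.14 and 1.98 in males labelled knockout, against 2.87 and 2.72 in wild-type males. In females labelled knockout it read 2.08 and 2.12, against 2.96 and 2.58 in wild-type females. The 4 arrays labelled knockout spanned 1.98 to 2.14 and lay below every wild-type array. The male difference was -0.74 ± 0.15 (limma, adjusted p = 0.0356), and the female one of -0.67 ± 0.15 missed the threshold (adjusted p = 0.0618). Averaged over both sexes it was -0.70 ± 0.11, 1.63-fold lower (adjusted p = 0.00943), and this call held in every alternative setting that gave it (highest adjusted p = 0.0417). The male call was lost in 6 of the 8 refits that left out 1 array, all except those without a wild-type female.

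Nr1i3, the constitutive androstane receptor CAR, showed another pattern: its level was high in wild-type females and lower in the other 3 groups. It read 2.62 and 2.80 in males labelled knockout, against 2.53 and 2.60 in wild-type males. In females labelled knockout it read 2.11 and 2.68, against 3.43 on both arrays of wild-type females. Its level was 2.05-fold lower in females labelled knockout than in wild-type females (-1.03 ± 0.19, limma, adjusted p = 0.0368), and the difference in males was 0.14 ± 0.19 (adjusted p = 0.685). The test of the difference between the sexes gave 1.18 ± 0.27 (unadjusted p = 0.00494) and did not pass after adjustment (adjusted p = 0.332). In wild type, males minus females was -0.87 ± 0.19 (adjusted p = 0.109). This value and the female genotype difference share the wild-type female arrays.

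The dimmer Nr1i3 probe also read highest in wild-type females and lowest on average in females labelled knockout, but its male groups differed by -0.04 ± 0.19, where those of the brighter probe differed by 0.14 ± 0.19, neither past the threshold. It read 0.74 and 0.74 in males labelled knockout, 0.78 and 0.77 in wild-type males, 0.19 and 0.78 in females labelled knockout and 1.68 and 1.61 in wild-type females. Its female difference was -1.16 ± 0.19 (limma, adjusted p = 0.0263 over probes), and its average over both sexes, -0.60 ± 0.14, passed (adjusted p = 0.0304), where that of the brighter probe, -0.45 ± 0.14, did not (adjusted p = 0.0698). The female call of the brighter probe was kept without female labelled knockout 2 (adjusted p = 0.016) and lost without any 1 of the other 7 arrays.

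Ppara, the receptor that switches on fatty acid oxidation in the fasted liver, was likewise highest in wild-type females. It read 5.68 and 5.54 in males labelled knockout, against 5.56 and 5.48 in wild-type males. In females labelled knockout it read 5.44 and 5.15, against 5.91 and 5.82 in wild-type females. The groups overlapped in males and did not in females. The female difference of -0.57 ± 0.13 missed the threshold (limma, adjusted p = 0.0619), the male one was 0.09 ± 0.13 (adjusted p = 0.712), and the test of their difference gave 0.66 ± 0.19 (unadjusted p = 0.0118, adjusted p = 0.395). The dimmer Ppara probe gave -0.57 ± 0.12 in females (adjusted p = 0.0535 over probes) and 0.16 ± 0.12 in males. The female call passed with normexp background correction, with quantile normalization and with the stricter filter on dim probes (lowest adjusted p = 0.023).

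**Figure D2:**
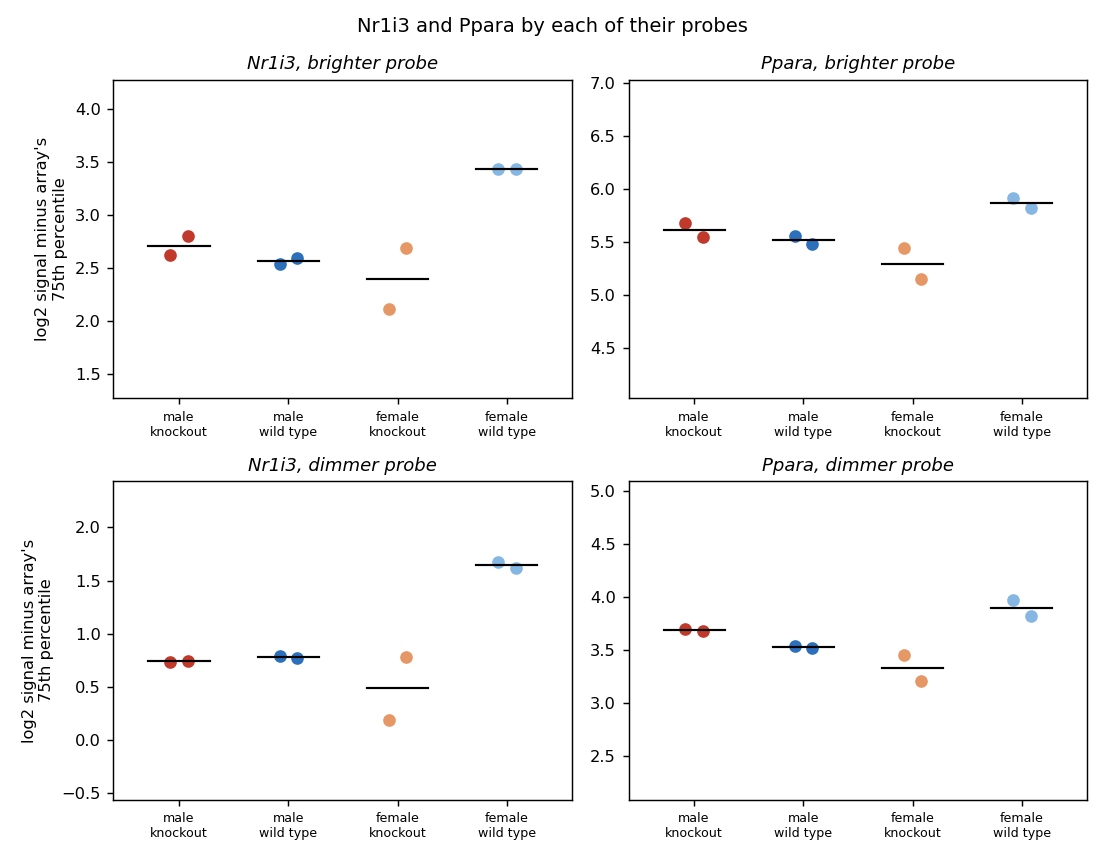
Nr1i3 (left) and Ppara (right) by each of their probes (vertical axis, log2 signal minus the array's 75th percentile; panels span 3 log2 units); points are arrays, lines the mean of 2. Both probes of each gene place wild-type females highest; for Nr1i3 they read 3.43 on both arrays with the brighter probe and 1.68 and 1.61 with the dimmer one.

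Pparg, best known as the regulator of fat cells and low in normal liver, read 1.39 and 1.02 in males labelled knockout, against 1.92 and 1.46 in wild-type males. The female levels were 1.54 and 1.22 in livers labelled knockout, against 2.82 and 2.39 in wild type. Each genotype pair was separate, but wild-type male 2 lay below female labelled knockout 1. Its level was 2.33-fold lower in females (-1.22 ± 0.24, limma, adjusted p = 0.0438), and the male difference of -0.49 ± 0.24 did not pass (adjusted p = 0.259). The average over both sexes was -0.86 ± 0.17 (adjusted p = 0.0213). The test of the difference between the sexes did not pass (0.74 ± 0.34, adjusted p = 0.644). The female call was lost without any 1 of the 8 arrays (highest adjusted p = 0.158), and the averaged one without male labelled knockout 2, wild-type male 1 or female labelled knockout 2 (highest 0.0713).

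Whole liver holds several cell types, and fewer cells of a type cannot be told apart from less RNA per cell. Of 9 listed adipocyte markers, 5 were measured and 1 was lower (Adrb3, described below) in livers labelled knockout. Adipoq was well above background on 0 arrays, Plin1 on 1, and Cfd and Cidea on 2. The summed level of the measured adipocyte markers, as multiples of the 75th percentile, was 5.67 to 5.74 in males labelled knockout, 7.55 to 7.62 in wild-type males, 5.25 to 5.80 in females labelled knockout and 5.47 to 6.37 in wild-type females. This sum includes Adrb3, at 1.72 and 1.17 (log2) in wild-type males and -3.69 and -3.62 in males labelled knockout. Of the other measured markers, Fabp4 (0.22) and Lep (0.15) were higher on average and Retn (-0.11) and Lipe (-0.30) lower, none past the threshold. The sum is therefore no count of fat cells, and their part in the Pparg result was not tested.

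Ppard, the widely expressed member of the PPAR group, read 1.82 and 2.74 in males labelled knockout, against 0.87 and 0.61 in wild-type males. In females labelled knockout it read 1.37 and 3.11, against 0.72 and 0.60 in wild-type females. All 4 arrays labelled knockout lay above the wild-type arrays, but they differed among themselves by up to 1.74, while the wild-type arrays spanned 0.27. The averaged difference of 1.56 ± 0.41 passed narrowly (2.95-fold higher, limma, adjusted p = 0.0459). It was lost in 7 of the 8 refits that left out 1 array, all except that without female labelled knockout 1, with adjusted p of up to 0.129. Neither sex alone passed (1.54 ± 0.58 in males, adjusted p = 0.153; 1.58 ± 0.58 in females, adjusted p = 0.163).

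Nr1h3, the oxysterol receptor that turns on cholesterol export and lipogenic genes, read 5.57 and 5.45 in males labelled knockout, against 5.40 and 5.28 in wild-type males. In females labelled knockout it read 5.44 and 5.52, against 5.25 and 5.17 in wild-type females. With this brighter probe, every array labelled knockout lay above every wild-type array. The averaged difference was 0.22 ± 0.07, with a 95% interval of 0.04 to 0.40, and did not pass (limma, adjusted p = 0.0894). The second probe gave 0.18 ± 0.08 (adjusted p = 0.174 over probes). With it the genotypes overlapped in males and over both sexes, and did not in females.

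Nr0b2 (SHP) varied more between replicates than the others except Ppard. It read 1.096 and -0.058 in males labelled knockout, against 1.04 and 0.71 in wild-type males, and 0.50 and -0.27 in females labelled knockout, against 0.66 and 1.04 in wild-type females. The averaged difference was -0.54 ± 0.31 (adjusted p = 0.25), with a 95% interval of -1.29 to 0.20, an interval that holds 0.

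Nr5a2 (LRH-1), which acts on bile acid and steroid genes, read 3.89 and 3.78 in males labelled knockout, against 4.03 and 3.77 in wild-type males, and 4.03 and 3.88 in females labelled knockout, against 4.18 and 3.57 in wild-type females. All 4 groups overlapped, and the averaged difference was 0.01 ± 0.15 (adjusted p = 0.985), with a 95% interval of -0.37 to 0.38.

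**Figure D3:**
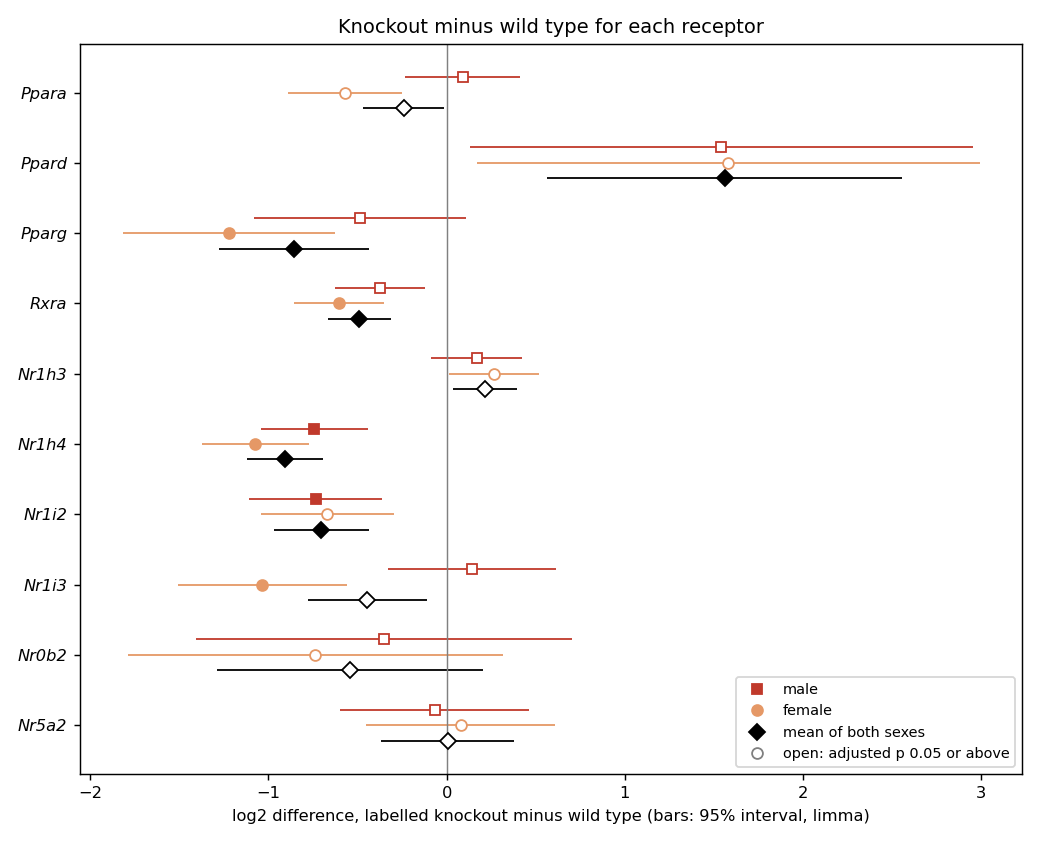
Difference of each receptor, labelled knockout minus wild type (horizontal axis, log2), in males (squares), females (circles) and averaged (diamonds), with 95% intervals from limma; filled symbols are past the adjusted threshold of 0.05. Nr1h4 is filled in all 3 comparisons, Nr0b2, Nr1h3, Nr5a2 and Ppara in none, and the widest intervals are those of Ppard and Nr0b2.

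No member passed the test between the sexes in either genotype, nor the test of whether the genotype difference differed between the sexes, all by limma adjusted over all features. In wild type, 0.975% of all features passed between males and females, and 3 of 10 members had an unadjusted p below 0.05: Ppara (-0.35 ± 0.13), Pparg (-0.91 ± 0.24) and Nr1i3 (-0.87 ± 0.19), all with lower means in males. At an unadjusted p below 0.05 stood 4783 of all 26551 features. Among livers labelled knockout, 0.0753% of all features passed and an unadjusted p below 0.05 was found for 0 members and for 1594 of all features. The differences of the 3 members, male minus female, were 0.31 ± 0.13 for Ppara, -0.18 ± 0.24 for Pparg and 0.31 ± 0.19 for Nr1i3. For the interaction, 0.188% of all features passed, and 2 members had an unadjusted p below 0.05 (Ppara and Nr1i3), as did 2222 of all features. These comparisons share arrays with the genotype comparisons above, so the values are given side by side only.

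The genes whose centred levels over the 8 arrays lay nearest to a member were found among 15476 genes with a symbol, by the root mean square distance over the arrays (log2), with no statement on shared function or control. Nr1h4 was nearest to genes that included Gpld1 (0.098) and Ddhd2 (0.115), against its own spread of 0.469. Nr1i2 was nearest to Gpr108 (0.081), Ap3m1 (0.082) and Pbld2 (0.087), with a spread of its own of 0.369. The distances were smallest for Rxra, to Ugt3a2 (0.039), Tom1l2 (0.054) and Optn (0.059), with an own spread of 0.259. Nr1i3 was nearest to genes that included Lect2 (0.134) and Bcl9l (0.164), against a spread of 0.422. The gene nearest to Pparg was Gm11837 (0.176), followed by Tob2 (0.189) and Myl6b (0.204), and those nearest to Ppard were Fam222a (0.258), Dexi (0.343) and Lrrc8b (0.372), against spreads of 0.575 and 0.927. Lect2 encodes a protein that hepatocytes secrete. Lect2 read 5.41 and 5.65 in males labelled knockout, 5.67 and 5.63 in wild-type males, 5.04 and 5.55 in females labelled knockout and 6.39 and 6.10 in wild-type females. It thus shared with Nr1i3 the high wild-type female arrays and the low female labelled knockout 1. This likeness follows from the choice of Lect2 by its distance to Nr1i3 and is no separate result.

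The pathways of the receptors are described by lists of known target genes, by how many passed in the comparison averaged over both sexes, where 19.8% of all features passed. The lists do not record whether a receptor raises or lowers a gene. Their counts and medians therefore give no direction of receptor activity. Of 40 measured PPARA targets, 2 were higher and 8 lower in livers labelled knockout, with a median difference of -0.19. Pex11a, which takes part in peroxisome division, was lower, with an averaged difference of -1.28 ± 0.11 (adjusted p = 0.00146). The acyl-CoA thioesterases, which release free fatty acids from acyl-CoA, moved both ways. Acot1 was lower (-1.49 ± 0.15, adjusted p = 0.00246), while Acot3 (2.86 ± 0.13, adjusted p = 0.000129) and Acot4 (1.49 ± 0.09, adjusted p = 0.000375) were higher. Acot3 read 4.55 and 4.59 in males labelled knockout, against -0.14 and -0.54 in wild-type males, and 4.87 and 4.84 in females labelled knockout, against 4.23 and 3.84 in wild-type females.

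Of 14 measured PPARG targets, 1 was higher and 5 lower, with a median of -0.28. Adrb3, a beta-adrenergic receptor of fat cells, was lower by 4.19 ± 0.21 on the log2 scale (adjusted p = 0.000174). It read -3.69 and -3.62 in males labelled knockout, against 1.72 and 1.17 in wild-type males, and -2.91 and -3.58 in females labelled knockout, against 0.24 and -0.20 in wild-type females. The lipid droplet protein Plin4 (-2.63 ± 0.27, adjusted p = 0.00246), the growth factor Fgf1 (-0.84 ± 0.07, adjusted p = 0.00125) and the fatty acid activating enzyme Slc27a2 (-0.72 ± 0.08, adjusted p = 0.00274) were also lower. The remaining lower gene was Plin5 (-0.86 ± 0.13, limma, adjusted p = 0.00979), and the 1 higher gene was Cd36 (1.75 ± 0.32, adjusted p = 0.0158). Plin5 and Cd36 are outside the rule for named genes and were chosen after their values were seen.

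Of 23 measured LXR targets, 5 were higher and 6 lower, with a median of 0.04. Apoc2, the activator of lipoprotein lipase, was higher (1.48 ± 0.09, adjusted p = 0.000375). Pnpla3, a lipid droplet protein, was also higher (3.16 ± 0.28, adjusted p = 0.00154), with 1 of the 2 wild-type male arrays well above background. The fatty acid desaturase Scd1 (-2.34 ± 0.24, adjusted p = 0.00268) and Mlxipl, which encodes the sugar-responsive factor ChREBP (-0.73 ± 0.07, adjusted p = 0.00232), were lower. The list's leading genes therefore moved in opposite directions.

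Of 25 measured FXR targets, 6 were higher and 4 lower, with a median of 0.11. The higher ones included Sdc1, a heparan sulphate proteoglycan (1.42 ± 0.08, adjusted p = 0.000232), Apoc2 again, and the phospholipid transfer protein Pltp (0.58 ± 0.11, adjusted p = 0.0184). Pltp read 2.30 and 2.75 in males labelled knockout, against 1.39 and 1.46 in wild-type males, and 1.59 and 1.58 in females labelled knockout, against 1.51 and 1.53 in wild-type females. Its call was lost without either wild-type male or either female labelled knockout (highest adjusted p = 0.0658). The bile acid uptake carrier Slco1b2 was lower (-1.23 ± 0.10, adjusted p = 0.00128). The remaining lower genes were Abcb11 (-0.30 ± 0.07), Abcb4 (-0.51 ± 0.12) and Abcc2 (-0.33 ± 0.07). The remaining higher ones were Slc51b (1.09 ± 0.22), Fetub (0.36 ± 0.08) and Apoc3 (0.27 ± 0.07). These remaining genes are outside the rule for named genes and were chosen after their values were seen. Nr0b2 stands in this list too and did not pass.

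Of 33 measured CAR and PXR targets, 6 were higher and 9 lower, with a median of -0.17. In males alone 7 were higher and 6 lower, with a median of 0.04. In females alone 2 were higher and 7 lower, with a median of -0.43. Over all features 5.77% were higher and 4.93% lower in males, and 3.48% higher and 2.45% lower in females. Cyp3a44, a cytochrome P450, read 6.16 and 6.13 in males labelled knockout, and its probe was not well above background on either wild-type male array, so its level was at least 1336-fold higher. That bound sets the mean of the brighter group against, on each dim array, the higher of the probe's own signal and the lowest signal well above background. In females it read 5.75 and 6.16 in livers labelled knockout, against -0.07 and 1.46 in wild type (5.26 ± 0.48, adjusted p = 0.00436). The aldehyde dehydrogenase Aldh1a7 was higher in both sexes (averaged 2.14 ± 0.08, adjusted p = 9.03e-05). Cyp2c54 (-2.10 ± 0.10, adjusted p = 0.000145) and Cyp2c50 (-2.29 ± 0.13, adjusted p = 0.000294) were lower in both. Probes for such closely related P450 genes may also bind each other's transcripts, which was not tested.

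Of 19 measured LRH-1 and SHP targets, 2 were higher and 3 lower, with a median of -0.06. Cyp7b1, an oxysterol hydroxylase of bile acid synthesis, was lower in males (-2.07 ± 0.14, adjusted p = 0.000896) and higher in females (0.90 ± 0.14, adjusted p = 0.0228); the female call was lost without any 1 of the 4 arrays labelled knockout (highest adjusted p = 0.0971). Lcat, which esterifies cholesterol in plasma, and Mat1a, which makes S-adenosylmethionine, were higher (0.48 ± 0.08, adjusted p = 0.0131, and 0.82 ± 0.16, adjusted p = 0.0178). The Lcat call was lost without male labelled knockout 2 (adjusted p = 0.0565), and that of Mat1a without either male labelled knockout, wild-type male 2 or female labelled knockout 1 (highest 0.0674).

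Of 29 measured heterodimer partners and coregulators, 2 were higher and 7 lower, with a median of -0.16. Crebbp, a coactivator with acetyltransferase activity, and the FXR relative Nr1h5 were higher (1.28 ± 0.28, adjusted p = 0.0276, and 0.60 ± 0.15, adjusted p = 0.0446). The 7 lower ones included coactivators as well as corepressor genes. They were Ppargc1b (-1.76 ± 0.19, adjusted p = 0.0031), Lpin1 (-2.37 ± 0.30, adjusted p = 0.00488), Lpin2 (-0.98 ± 0.15, adjusted p = 0.00867), the Mediator subunit Med1 (-0.38 ± 0.07, adjusted p = 0.0177), the coactivator Ncoa3 (-0.31 ± 0.07, adjusted p = 0.0306), and the corepressor genes Ncor1 (-0.34 ± 0.08, adjusted p = 0.0358) and Tbl1x (-0.37 ± 0.07, adjusted p = 0.0177). Crebbp, Nr1h5, Ncoa3, Ncor1 and Tbl1x are outside the rule for named genes and were chosen after their values were seen. The calls of Nr1h5 and Ncor1 were lost without any 1 of the 8 arrays, that of Crebbp without any array but the 2 of wild-type females, that of Ncoa3 without any array but wild-type female 1, and that of Tbl1x without male labelled knockout 2, either wild-type male or female labelled knockout 1 (highest adjusted p = 0.122). With the mean of its probes the Crebbp difference was 0.55. The Med1 call was lost without either male labelled knockout, wild-type male 2 or female labelled knockout 2 (highest adjusted p = 0.0696). Lpin1 and Lpin2 are also phosphatidate phosphatases of triglyceride synthesis. Lpin1 read 2.87 and 2.31 in males labelled knockout, against 4.13 and 5.11 in wild-type males, and 2.08 and 1.29 in females labelled knockout, against 4.18 and 4.64 in wild-type females.

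Of 29 other nuclear receptors measured, 4 were higher and 3 lower, with a median of -0.12. The oestrogen receptor Esr1 read 3.16 and 3.34 in males labelled knockout, against 0.79 and 0.96 in wild-type males, and 3.09 and 2.91 in females labelled knockout, against 1.66 and 2.31 in wild-type females. Its averaged difference was 1.69 ± 0.16 (adjusted p = 0.00185). Nr5a1, the close relative of Nr5a2 best known from steroid-producing glands, was higher (1.48 ± 0.14, adjusted p = 0.00216). The retinoic acid receptor Rara was lower (-0.43 ± 0.08, adjusted p = 0.0142), a call lost without male or female labelled knockout 1 (highest 0.0618). The progesterone receptor Pgr was well above background on both arrays of males labelled knockout, 1 of females labelled knockout and 0 wild-type arrays, and its level in males labelled knockout was at least 2.51-fold higher than in wild-type males. Pgr entered the test only through the group where it was high, so its call supports nothing, and without it 3 receptors were higher.

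Of 31 measured genes of ligand supply, 5 were higher and 5 lower, with a median of -0.01. Cyp26b1, which degrades retinoic acid, was lower by 4.57 ± 0.20 on the log2 scale (adjusted p = 0.000112), and Aldh1a2, which makes it, was higher (2.51 ± 0.18, adjusted p = 0.000754, 1 of the 2 wild-type male arrays well above background). Cyp39a1, an oxysterol hydroxylase, was lower (-2.05 ± 0.15, adjusted p = 0.000738), and the fatty acid desaturase Fads1 was higher (1.62 ± 0.13, adjusted p = 0.000941).

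**Figure D4:**
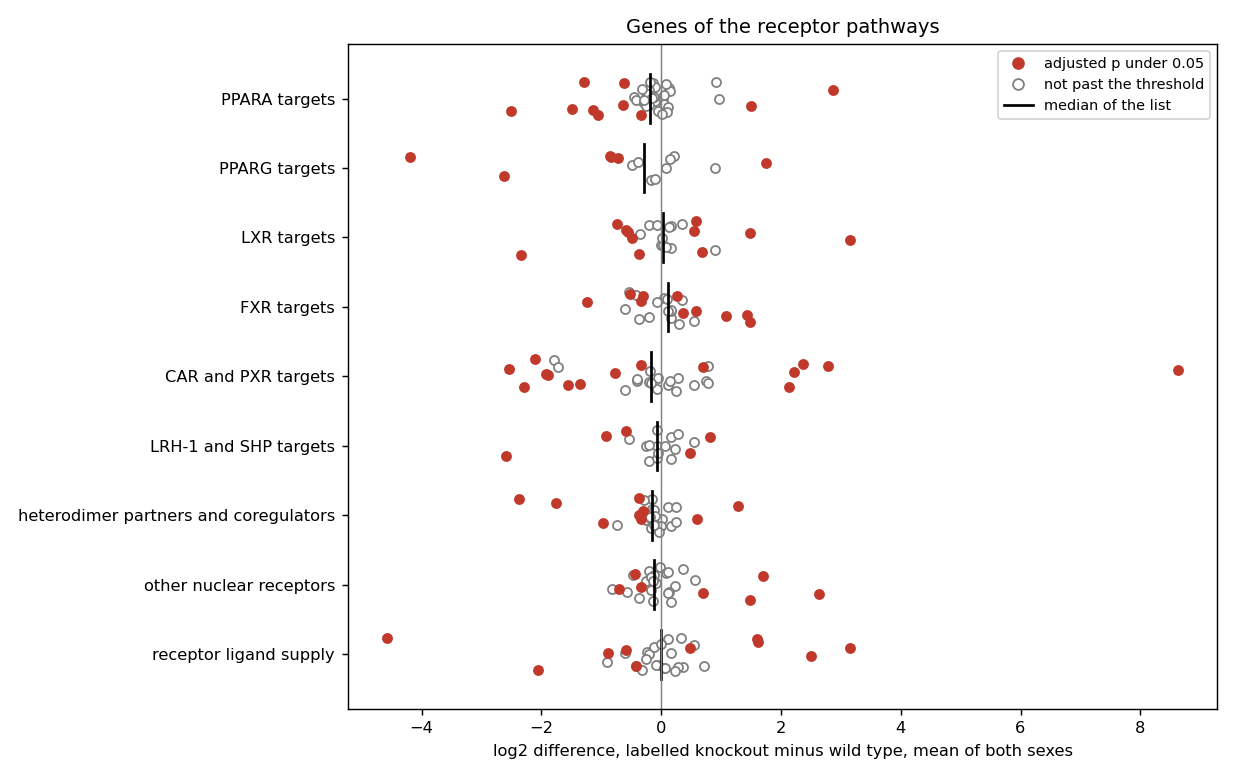
Difference of each measured gene of 9 pathway lists, labelled knockout minus wild type averaged over both sexes (horizontal axis, log2); filled points are past the adjusted threshold of 0.05 and bars are list medians. The medians lie between -0.28 (PPARG targets) and 0.11 (FXR targets) while single genes reach from Cyp26b1 at -4.57 to Cyp3a44, not well above background in wild-type males, at 8.63.

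Of 20 listed hepatocyte markers 19 were measured, and Alb read well above background on all 8 arrays. Averaged over both sexes, where 9.82% of all features were higher and 10.0% lower, 4 of these markers were higher and 3 lower. Their median difference was 0.10. Their summed level was 13460 to 13780 times the 75th percentile in males labelled knockout, 12910 to 13100 in wild-type males, 12240 to 13360 in females labelled knockout and 11660 to 12330 in wild-type females. Of the markers of other cells, 5 of 10 for B and plasma cells were higher and 0 lower. Among them was Sdc1, which also stands in the list of FXR targets and so is not counted for these cells alone. For stellate cells 4 of 12 were higher and 1 (Lrat) lower, for endothelial cells 3 of 15 higher, for macrophages and Kupffer cells 2 of 18 higher, for cholangiocytes 2 of 8 higher, for T and NK cells 2 of 12 higher, and for neutrophils 0 of 5 in either direction (limma). Of these, the macrophage marker Ccr2 and the cholangiocyte marker Prom1 entered the test only through the groups labelled knockout, where they were high, so their calls support nothing, and without them 1 macrophage and 1 cholangiocyte marker were higher. The summed endothelial level was 153 to 162 in males labelled knockout, 115 to 120 in wild-type males, 153 to 154 in females labelled knockout and 137 to 144 in wild-type females. The part of any of these cell types in the receptor results was not tested.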

How the data were processed

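Whole-liver RNA of 8 samples was labelled with Cy3 and hybridised to 1-colour Agilent arrays. The deposited intensity columns were written by Agilent Feature Extraction 11.5.1.1, per the file headers, with the background subtracted and a spatial trend corrected; version 9.1.3.1 stands in the submitters' processing notes. The deposited value table is log2 of those signals less an array-wide constant, to within 0.01.

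Flagged spots were left out, spots of a probe averaged, and 32994 of 56605 probes named through RefSeq accessions (GRCm38.p6). Each array's 75th percentile (127 to 158 signal units) was subtracted on the log2 scale. Kept were the 33580 probes that some group showed well above background on both its arrays, and the brightest probe stood for a gene. The 4 group means were fitted over 26551 features with limma 3.58.1 (R 4.3.3; 4 residual and 2.08 prior degrees of freedom), with 6 contrasts and Benjamini-Hochberg adjustment. The normexp alternative used median signals, as the files hold no mean signals. Alternatives were other background correction, scaling, filters and probe rules, the deposited table, a replicate block, leaving out each array, and each sex alone. The main fit did not pair samples by replicate number. Deviations of the replicate 1 arrays from their group means correlated by -0.0017 to 0.1016 between groups. Such weak correlations cannot show whether samples with the same number were handled together.

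The members, the lists and the tests were chosen with earlier results of these data known. Named genes are the members, Bcl6, the sex-linked checks, the 4 genes of each pathway list with the smallest adjusted p in the averaged comparison, and the 3 nearest genes of each member past the threshold in any comparison; some of these are not reported here. Of the marker lists, the genes named are defining markers, or singled out after their values were seen (Adrb3, Sdc1, Lrat, Ccr2 and Prom1). The fit was also run on simulated arrays with independent noise and known differences added to both groups labelled knockout. Only the averaged comparison was read there, so the run says nothing on calls within a sex or on the interaction.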

Additional observations from a re-analysis of the deposited data

Results flagged for a closer look

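Of the named pathway genes, these 4 differed between the sexes in their response, by the limma test of the interaction (male minus female of the labelled knockout minus wild-type differences, log2). None is one of the 10 receptors. In the CAR and PXR list 3 of 33 measured genes passed this test, all with a positive interaction, where 0.188% of all features passed. Only Cyp3a44 of these is named here. Acot3 had an interaction of 4.09 ± 0.26 (adjusted p = 0.00948), with a difference of 4.91 in males and 0.82 in females. Acot4 had one of 1.71 ± 0.18 (adjusted p = 0.0397), with 2.35 in males and 0.64 in females, and lost its call without any 1 of the arrays other than the wild-type females (highest adjusted p = 0.102). Cyp3a44 had one of 6.73 ± 0.68 (adjusted p = 0.0372), which is no measured size, since its probe was not well above background in wild-type males, and whose call was lost in the same refits (highest adjusted p = 0.0973). Cyp7b1 had one of -2.97 ± 0.20 (adjusted p = 0.00948), lower in males labelled knockout and higher in females labelled knockout.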

How the results depend on the processing

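Over 18 alternative settings, no receptor difference that was called changed sign. The calls of Rxra, Nr1h4 and Nr1i2 averaged over both sexes held in all settings that gave the value. The calls of Ppard and Pparg, and those within one sex, were each lost in some settings. Those settings were leaving out an array, using only the female arrays, no filter on dim probes, no scaling and the mean of probes. In males the receptors called numbered 2, but 3 with normexp and with the replicate block, 1 without scaling, 0 without the filter on dim probes, and 0 to 2 when 1 array was left out. In females they numbered 4, but 6 with normexp and with the filter on all 8 arrays, 5 with quantile normalization, 3 with the mean of probes, 2 without scaling, 1 without the filter, 0 with only the 4 female arrays, and 0 to 2 with 1 array left out. Averaged, they numbered 5, but 6 with normexp and with the mean of probes, 3 without the filter and 3 to 5 with 1 array left out. Between wild-type sexes they numbered 0, but 1 with normexp (Nr1i3) and 1 with the replicate block (Pparg).

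Over all features the counts were 2841 in males (1225 without the filter, 1077 to 2911 with 1 array left out), 1574 in females (2616 with normexp, 1039 without scaling, 522 without the filter, 394 with only the 4 female arrays, 562 to 1690 with 1 left out), 5262 averaged (2613 without the filter, 2790 to 5222), 259 between wild-type sexes (603 with normexp, 99 without the filter, 86 to 1059), 20 between the sexes labelled knockout (9 with normexp, 1 with the filter on all 8 arrays, 11 to 217) and 50 for the interaction (16 without the filter, 25 with the replicate block, 80 to 530). With the replicate block Pparg also passed in males (adjusted p = 0.0459). The cause of these shifts was not tested. Without scaling between arrays the median of all features moved to -0.11 between wild-type sexes and to between -0.10 and -0.08 in the other direct comparisons. Of 980 values of the receptors under alternatives, 909 kept their call, 58 lost one and 13 gained one.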
